A study of Mus musculus with 6 samples.

Results

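The proteasome is the protease that degrades proteins tagged with ubiquitin. The genes described here are the 37 protein-coding genes of the table whose mouse symbol starts with Psma, Psmb, Psmc or Psmd followed by a digit, out of 26128 genes listed. The immunoproteasome genes Psmb8, Psmb9 and Psmb10 and the pseudogenes were left out by the rule. There were 16 core members (Psma and Psmb) and 21 cap members (Psmc and Psmd). Among the cap members, Psmd5, Psmd9 and Psmd10 encode assembly chaperones that leave the finished particle, and Psmc3ip carries a similar symbol but encodes a partner of meiotic recombinases and no subunit. Psma8, a testis form of an alpha subunit, and Psmb11, a catalytic subunit of the thymic cortex, are core genes of restricted tissues.

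RNA was sequenced from double negative T (DNT) cells, T cells without CD4 and CD8, obtained by converting CD4+ T cells of adult C57BL/6 mice (spleen) in culture and sorting CD3+NK1.1-CD4-CD8- cells. According to the methods of the study, the starting cells were CD4+CD25- and came from lymph nodes as well as spleens. By the same methods, the conversion culture held IL-2 and mature dendritic cells of DBA/2 mice. All 6 libraries came from cells stimulated with anti-CD3/CD28 beads over 48 h, of which 3 had no IL-33 (control) and 3 had IL-33, a cytokine of the IL-1 family, at 50 ng/ml. Separate mice or cultures for the replicates were not stated, so the p-values measure only the spread between these libraries, which may be technical.

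The core particle is a barrel of stacked rings. The outer alpha rings form the gate, and the inner beta rings hold the proteolytic sites, of which Psmb6 gives the caspase-like, Psmb7 the trypsin-like and Psmb5 the chymotrypsin-like one. The cap sits on the alpha ring, where its base, built on a ring of AAA ATPases (Psmc1 to Psmc6), unfolds the substrate and threads it inwards, while its lid removes the ubiquitin chain. In lymphocytes the immunoproteasome subunits Psmb9, Psmb10 and Psmb8 replace Psmb6, Psmb7 and Psmb5 and shape the peptides presented on MHC class I. When the proteasome is inhibited, the transcription factor Nfe2l1 raises the subunit genes together through antioxidant response elements in their promoters.

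Promoters of 30 of the 37 members were found in the RefSeq sequences (GRCm38.p6), and the 250 bases before each start were searched on both strands for TGACNNNGC, the core of the antioxidant response element, and for CCAAT, the box bound by NF-Y. Psma8, Psmb1, Psmb2, Psmb7, Psmc3, Psmd3 and Psmd7 were not among them. TGACNNNGC stood in 5 of the 30 (16.7%), against 11.5% of the 27025 genes with a promoter in the RefSeq set. Of these 5, Psmb5, Psmb6 and Psmd9 held it on the strand of the gene, starting at base -47, -9 and -31 from the start, and Psmc6 and Psmd12 on the other strand at -227 and -247. CCAAT stood in 13 of the 30 (43.3%), against 37.5% of that set, with 7 of 12 core and 6 of 18 cap promoters. No member promoter held both motifs. The stretches before the start that lie outside annotated exons are given for some genes. They cover 3 members with TGACNNNGC, the catalytic Psmb5 and Psmb6 and the ATPase gene Psmc6, and also Psmc4 and Psmb10, described further on. Psmc4 held neither motif in its 250 bases. In Psmb10, outside the rule, the printed stretch from -250 to -53 held neither, and the bases nearer the start are not covered. Sequences run 5' to 3' on the strand of the gene, and capitals mark TGACNNNGC, read on the opposite strand in Psmc6.
Psmb5, chr14:54618023-54618245, minus strand: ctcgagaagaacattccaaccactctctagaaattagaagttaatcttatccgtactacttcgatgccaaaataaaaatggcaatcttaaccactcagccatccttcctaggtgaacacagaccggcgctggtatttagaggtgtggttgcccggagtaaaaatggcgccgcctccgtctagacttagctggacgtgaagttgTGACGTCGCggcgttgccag
Psmb6, chr11:70525107-70525356, plus strand: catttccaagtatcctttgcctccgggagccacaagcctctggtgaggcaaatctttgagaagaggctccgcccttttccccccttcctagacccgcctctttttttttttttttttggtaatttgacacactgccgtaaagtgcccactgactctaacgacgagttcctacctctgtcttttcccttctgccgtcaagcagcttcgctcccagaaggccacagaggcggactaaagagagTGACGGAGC
Psmc6, chr14:45329574-45329787, plus strand: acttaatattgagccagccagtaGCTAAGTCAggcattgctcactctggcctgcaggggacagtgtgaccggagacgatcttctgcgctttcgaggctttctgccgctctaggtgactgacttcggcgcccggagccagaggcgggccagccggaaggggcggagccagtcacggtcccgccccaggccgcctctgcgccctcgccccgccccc
Psmc4, chr7:28050102-28050342, minus strand: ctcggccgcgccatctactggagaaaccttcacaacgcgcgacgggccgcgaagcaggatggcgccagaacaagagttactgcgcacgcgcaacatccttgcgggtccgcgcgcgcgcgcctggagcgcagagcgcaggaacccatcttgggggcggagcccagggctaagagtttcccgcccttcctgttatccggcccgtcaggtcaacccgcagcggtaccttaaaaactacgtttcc
Psmb10, chr8:105938445-105938642, minus strand: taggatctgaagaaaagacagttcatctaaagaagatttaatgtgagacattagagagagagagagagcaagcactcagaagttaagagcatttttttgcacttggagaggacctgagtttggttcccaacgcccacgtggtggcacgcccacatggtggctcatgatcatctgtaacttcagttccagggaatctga

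A match of letters is a description of the sequence and no binding site. The log2 fold changes with IL-33 of the members with TGACNNNGC were -0.02 for Psmb5, -0.0093 for Psmb6, -0.09 for Psmd9, 0.11 for Psmc6 and 0.03 for Psmd12, of which Psmc6 alone passed the test described next.

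The libraries held 20256342 to 22336050 counts. Levels are in CPM (counts relative to the library total, with totals scaled by TMM). The limit that 3 counts set, taken on totals without this scaling, lay at 0.134 to 0.148 CPM. T cell markers summed to 2425 to 2602 CPM. Of these 10 genes, 1 rose with IL-33 by the test described below (Cd3g, log2 fold change 0.13). By the same test 3 fell, Lck (-0.17), Cd2 (-0.16) and Cd5 (-0.43), beside 13.6% of all genes tested called higher and 13.9% lower. Yet Cd8a, a coreceptor the cells were sorted against, was abundant in every library, at 535 to 561 CPM in control and 393 to 410 CPM in IL-33 libraries. Cd8b1 lay between 8.12 and 18.1 CPM and Cd4 at or below 1.08 CPM. With IL-33, Cd8a fell by 0.45 on the log2 scale (adjusted p = 2.38e-26) and Cd8b1 rose by a log2 fold change of 0.75 (adjusted p = 6.16e-08). Cd4, at 5 to 22 counts per library, was called lower by the same test (log2 fold change -1.31, adjusted p = 0.0233). The Cd8a reads went against the CD8- label in all 6 libraries.

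Of the 37 members, 35 passed the filter on low counts. Psma8 had 3, 0 and 0 counts in the control and 4, 2 and 1 in the IL-33 libraries, and Psmb11 had 0, 1 and 0 against 3, 2 and 0. Both lay at or near the limit of detection and were not tested. The other 35 were expressed in every library, and 34 of them changed by less than 1.5-fold in their estimates. By edgeR's quasi-likelihood test, with adjusted p under 0.05, 2 members rose (Psma7 and Psmc6), 3 fell (Psmd3, Psmc4 and Psmc3ip) and 30 did not pass. Over all 14671 genes tested, 13.6% were called higher and 13.9% lower, so 5 calls in 35 members (14.3%) lay below the 27.5% called in either direction overall. With a fold change of at least 1.5 as a second condition, 0 members were higher, against 2.47% of all genes, and Psmc3ip alone was lower, against 2.39%. In bulk RNA, a smaller share of cells that express a gene and less RNA per cell cannot be told apart.

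**Figure D1:**
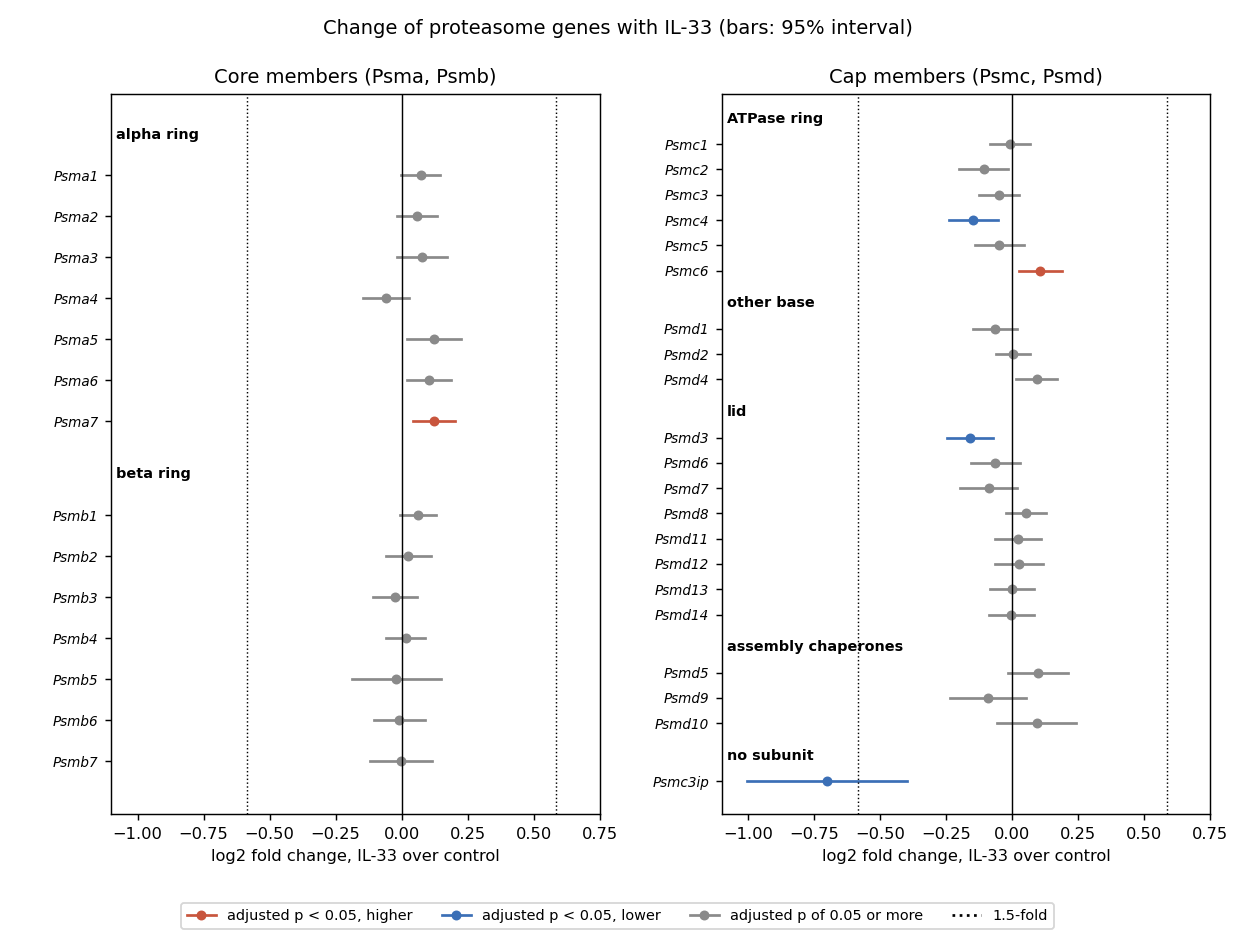
Log2 fold change of each tested member with IL-33 (x axis, point) with its 95% interval (bar), core genes on the left and cap genes on the right, by place in the particle (y axis); dotted lines mark 1.5-fold. Psma7 and Psmc6 rose, Psmd3, Psmc4 and Psmc3ip fell, and the intervals of all members but Psmc3ip lie inside 1.5-fold.

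Leaving out Psmc3ip, the log2 fold changes of the other 34 members ran from -0.16 to 0.12, and all 34 intervals lay inside a 1.5-fold change in either direction, with -0.25 as the lowest and 0.24 as the highest bound. Their median absolute log2 fold change was 0.06, against 0.15 over all genes tested. Their mean levels were 21.0 to 236 CPM. Among the 6199 tested genes in that range of levels, 38.4% were called and the median absolute log2 fold change was 0.10, against 11.8% and 0.06 for the 34 members. At this depth, log2 fold changes as small as 0.11 (Psmc6) were called among the members. By direction alone, 18 of the 35 members had a fold change above 1 and 17 below. The groups did not overlap, with all IL-33 libraries on one side of all controls, in 5 members upward (14.3%, 19.4% of all genes) and 7 downward (20.0%, 19.5% of all genes).

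The alpha ring, the gate of the core, had a fold change above 1 in 6 of its 7 genes (median log2 fold change 0.08). By the test, 1 gene was higher (14.3%, beside 13.6% of all genes tested). Psma7, the alpha4 subunit at chr2:180036374-180042433 on the minus strand (GRCm38), measured 116, 120 and 121 CPM in the control libraries and 130, 136 and 123 CPM in the IL-33 libraries. It rose by a log2 fold change of 0.12 (SE 0.0396, adjusted p = 0.0119). The groups did not overlap, but the lowest IL-33 library lay just above the highest control. Without IL-33 replicate 2 its adjusted p was 0.142, and without control replicate 1 it was 0.0555.

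Psma6, the alpha1 subunit, had 88.0, 91.5 and 90.6 CPM in control and 96.4, 101 and 93.2 CPM in IL-33 libraries. Its groups also stood apart, with a log2 fold change of 0.10 (SE 0.0419, adjusted p = 0.0516). It passed the test without IL-33 replicate 3 (adjusted p = 0.0280) and when genes of low level were filtered more strictly (0.0407). Psma5, the alpha5 subunit, had 58.5, 62.0 and 57.6 CPM in control and 59.0, 67.2 and 67.8 CPM in IL-33 libraries. IL-33 replicate 1 lay among the controls and the other two above them, and the log2 fold change of 0.12 had an SE of 0.0513 and an adjusted p of 0.0621. Without IL-33 replicate 1 the adjusted p was 0.00918, and without control replicate 2 it was 0.0411.

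Psma1, the alpha6 subunit, had 137, 147 and 146 CPM in control and 154, 153 and 146 CPM in IL-33 libraries (log2 fold change 0.07, SE 0.0379, adjusted p = 0.156). Psma3, the alpha7 subunit, had 64.9, 65.5 and 71.2 CPM against 71.0, 70.3 and 71.4 CPM (log2 fold change 0.08, SE 0.0470, adjusted p = 0.231). In both genes the groups overlapped. Psma2, the alpha2 subunit, had a log2 fold change of 0.06 (adjusted p = 0.288), and Psma4, the alpha3 subunit, was the one alpha gene below 0, at -0.06 (adjusted p = 0.344).

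In the beta ring none of the 7 genes passed the test, 0 had an unadjusted p under 0.05, and DESeq2 and limma-voom called 0 as well. The groups overlapped in each gene. The log2 fold changes ran from -0.02 to 0.06, with 3 above and 4 below 0. The one with the smallest adjusted p was Psmb1, a structural subunit without a proteolytic site, at 185, 191 and 196 CPM in control and 203, 200 and 196 CPM in IL-33 libraries (log2 fold change 0.06, SE 0.0346, adjusted p = 0.173). For the 3 catalytic genes the libraries of both groups lay close together. Psmb5 had 20.0, 21.9 and 21.6 CPM in control and 22.0, 19.6 and 21.0 CPM in IL-33 libraries, a log2 fold change of -0.02 with an interval of -0.19 to 0.15. Psmb6 had 67.6, 63.0 and 66.7 CPM against 68.6, 62.9 and 64.5 CPM, with an interval of -0.11 to 0.09. For Psmb7, at 46.0, 46.9 and 51.2 CPM against 44.3, 52.8 and 46.9 CPM, the interval ran from -0.12 to 0.11. The IL-33 libraries of each of the 3 lay among the controls or on both sides of their range, and the adjusted p-values were 0.889, 0.916 and 0.977. Of the other beta genes, which bear no proteolytic site, Psmb2, Psmb3 and Psmb4 had log2 fold changes of 0.03, -0.02 and 0.02.

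The ATPase ring of the cap, which unfolds substrates, had 1 gene higher and 1 lower by the test (33.3%, beside 27.5% of all genes tested). Of its 6 log2 fold changes, 5 lay below 0. Psmc4, at chr7:28041707-28050101 on the minus strand, whose promoter is printed above, measured 74.3, 74.5 and 74.1 CPM in control and 67.3, 71.5 and 62.5 CPM in IL-33 libraries. It fell by 0.15 on the log2 scale (SE 0.0469, adjusted p = 0.0109). The controls lay within 1 CPM of each other and all IL-33 libraries below them, with replicate 3 the lowest. Without IL-33 replicate 3 its adjusted p was 0.189, and DESeq2 gave 0.0586.

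Psmc6, at chr14:45329788-45349705 on the plus strand, moved the other way, from 101, 104 and 98.8 CPM to 109, 111 and 107 CPM. The groups did not overlap, and it rose by a log2 fold change of 0.11 (SE 0.0404, adjusted p = 0.0377). The call was lost in DESeq2 (adjusted p = 0.0898), without a filter on low counts (0.0662) and on leaving out any of 4 libraries, namely IL-33 replicate 1 (0.0527) or 2 (0.118) and control replicate 1 (0.0588) or 3 (0.175). Psmc2 had 69.9, 72.3 and 71.6 CPM in control and 64.4, 65.2 and 68.8 CPM in IL-33 libraries. The groups stood apart, but with a log2 fold change of -0.11 (SE 0.0468) the adjusted p was 0.0739. Psmc1, Psmc3 and Psmc5 had log2 fold changes of -0.0085, -0.05 and -0.05.

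None of the other 3 base subunits passed the test in edgeR, DESeq2 or limma-voom, and 1 had an unadjusted p under 0.05. This was Psmd4, a ubiquitin receptor, at 110, 110 and 114 CPM in control and 122, 116 and 119 CPM in IL-33 libraries. All IL-33 libraries lay above the controls, and the log2 fold change was 0.09 (SE 0.0396, adjusted p = 0.0701), with an adjusted p of 0.0483 without IL-33 replicate 2. Psmd2, a scaffold that binds ubiquitin shuttles, stood at 230, 241 and 236 CPM in control and 238, 236 and 234 CPM in IL-33 libraries (log2 fold change 0.0019, interval -0.06 to 0.07), with the IL-33 libraries inside the range of the controls. Psmd1, the other large base scaffold, had a log2 fold change of -0.07 (adjusted p = 0.264).

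In the lid, 1 of 8 genes fell (12.5%, beside 13.9% of all genes tested) and none rose, with 0 higher at an unadjusted p under 0.05. Psmd3, a lid scaffold at chr11:98682554-98695979 on the plus strand, measured 98.6, 90.0 and 84.8 CPM in control and 84.2, 78.7 and 81.8 CPM in IL-33 libraries. It fell by 0.16 on the log2 scale (SE 0.0445, adjusted p = 0.00334). The controls spread widely, from 84.8 CPM, close to the highest IL-33 library, to 98.6 CPM in replicate 1, and without control replicate 1 the log2 fold change was -0.10 and the adjusted p 0.114. Psmd14, the deubiquitinase of the lid, had 86.8, 87.7 and 88.4 CPM against 86.1, 92.1 and 84.3 CPM, and its IL-33 libraries lay on both sides of the controls (log2 fold change -0.0034, adjusted p = 0.966). The other lid genes Psmd6, Psmd7, Psmd8, Psmd11, Psmd12 and Psmd13 ran from -0.09 (Psmd7) to 0.05 (Psmd8), and the groups overlapped in each.

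The 3 base assembly chaperones did not pass the test, with 0 at an unadjusted p under 0.05 and 0 called by DESeq2 or limma-voom. Psmd5 had 45.0, 46.1 and 44.4 CPM in control and 49.2, 47.3 and 48.7 CPM in IL-33 libraries (log2 fold change 0.10, SE 0.0573, adjusted p = 0.203), and Psmd9 had 29.0, 27.6 and 29.7 CPM against 27.3, 27.5 and 26.4 CPM (log2 fold change -0.09, SE 0.0724, adjusted p = 0.388). The groups stood apart in opposite directions in these 2 genes. Psmd10, also known as gankyrin, had 31.0, 31.0 and 27.7 CPM against 27.2, 35.4 and 33.0 CPM, with overlapping groups (log2 fold change 0.09, SE 0.0747, adjusted p = 0.397). Its value rested on single libraries, with 0.20 (adjusted p = 0.0592) without IL-33 replicate 1, 0.01 without IL-33 replicate 2 and 0.04 without control replicate 3.

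The one member that changed by more than 1.5-fold was Psmc3ip, which is not a proteasome gene by function. It lies at chr11:101091823-101095436 on the minus strand. It measured 7.77, 8.66 and 7.48 CPM in control and 5.11, 6.01 and 3.60 CPM in IL-33 libraries, from 165, 176 and 164 against 110, 126 and 80 counts. It fell by 0.70 on the log2 scale (SE 0.153, adjusted p = 0.000137), and every IL-33 library lay below every control. Of its exon bases, 385 (21.2%) are shared with Mlx on the opposite strand, a gene with a log2 fold change of 0.09 (adjusted p = 0.274), and the use of strand in the counting was not stated. Reads of the pair cannot be told apart where they overlap. Smaller shares of exon bases are shared by Psmb7 with Nek6 (405 bases), Psmd13 with Sirt3 (342), Psmc3 with Slc39a13 (215) and Psmb5 with Mir686 (109), and by Psma4, Psma5, Psmd1 and Psmd3 with other genes. The share is larger than that of Psmc3ip in Psmd9, which has 1849 exon bases (25.5%) in common with the noncoding Gm26745. The values of all these genes are uncertain to that extent. Without Psmc3ip, the cap members held 1 rise and 2 falls.

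Core and cap were then compared. In the core, 1 of 14 tested genes rose and none fell (7.14%), with 3 higher and 0 lower at an unadjusted p under 0.05, and the median log2 fold change was 0.04. In the cap, 1 of 21 rose and 3 fell (19.0%), so both shares lay below the 27.5% of all genes tested that were called. The cap had a median log2 fold change of -0.0085, and the median over all genes was -0.00063. Over the 17 cap subunits without chaperones and Psmc3ip, 1 rose and 2 fell (17.6%). The groups stood apart upward in 2 of 14 core and 3 of 21 cap members, beside 19.4% of all genes tested, and downward in 0 core and 7 cap members, beside 19.5%. Members are not replicates, and no test was made between core and cap.

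The summed level of the 14 core subunits was 1326, 1364 and 1374 CPM in control libraries (1355 ± 25.4, SD) and 1412, 1415 and 1373 CPM in IL-33 libraries (1400 ± 23.2). IL-33 replicate 3 lay among the controls, so the groups overlapped. The sum of the 17 cap subunits was 1674, 1702 and 1677 CPM (1684 ± 15.5) against 1669, 1683 and 1651 CPM (1668 ± 16.3), also with overlap. Divided within each library, core over cap was 0.792, 0.801 and 0.819 in control (0.804 ± 0.0136) and 0.846, 0.841 and 0.832 in IL-33 libraries (0.839 ± 0.00716). This ratio of summed CPM was higher in all 3 IL-33 libraries than in any control, but 0.832 lay close to 0.819, and the ratio was not tested. Groups also stood apart upward in 19.4% of all genes tested. Within the core, the median log2 fold change was 0.08 in the alpha ring and -0.0033 in the beta ring.

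**Figure D2:**
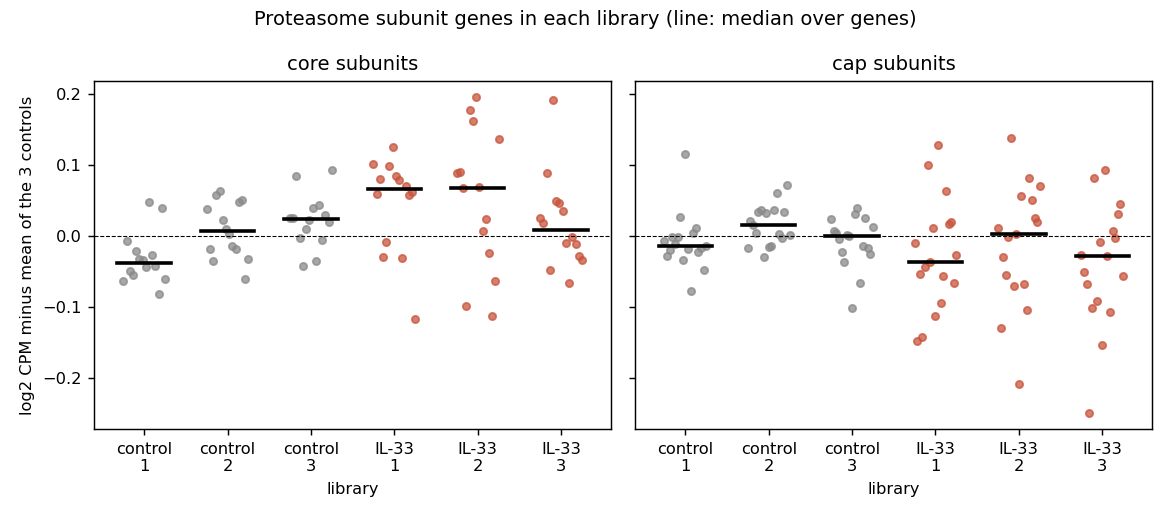
Log2 CPM of each subunit gene minus its mean over the 3 controls (y axis) in each library (x axis), for 14 core and 17 cap subunits; points are genes, the black line is their median. Core medians lie above 0 in all IL-33 libraries but are close to 0 in IL-33 replicate 3, and the cap medians of both groups lie on both sides of 0.

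Levels of different genes were compared per length, as CPM per kilobase of all annotated exons (RPKM). Within the core, and within the cap, subunits are present in equal number in the particle. Their RNA levels per length differed by 5.98-fold within the core and 5.42-fold within the cap. The highest core genes over the 6 libraries were Psmb4 (81.0 to 87.6 RPKM), Psma6 (71.3 to 81.7) and Psmb2 (65.0 to 70.4). The lowest were the catalytic Psmb5 (21.8 to 24.5) and Psmb7 (12.9 to 15.4) and, between them, Psma3 (16.7 to 18.3). Psmb4 and Psma6 overlapped in range, as did 8 of 13 neighbouring pairs in the order of the core. By the length of all exons, Psmb5, Psma3 and Psmb7 did not overlap with each other.

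In the cap the highest were the ATPase gene Psmc1 (61.7 to 63.9 RPKM), the scaffold Psmd2 (57.0 to 59.7) and the ATPase gene Psmc5 (47.1 to 51.7). The lowest were Psmc2 (12.8 to 14.4), the lid scaffold Psmd11 (12.0 to 12.6) and Psmd1 (11.1 to 12.0). In the order of the cap, 9 of 16 neighbouring pairs overlapped, among them Psmd11 and Psmd1. The median over genes was 40.7 RPKM in the core and 30.1 in the cap. With the length of the longest transcript in place of all exons, the ratio of highest to lowest became 8.21 in the core and 3.97 in the cap. With that length, 9 of the 12 genes named stayed among the 3 highest or lowest. Those that did not were all among the highest, Psma6 (rank 5) and Psmb2 (rank 4) in the core and Psmc5 (rank 8) in the cap. The order of the lowest genes also depended on the length used. With the longest transcript, Psma3 (rank 12) and Psmb5 (rank 13) changed places in the core. In the cap, Psmc2 moved from rank 15 to rank 17, the lowest.

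**Figure D3:**
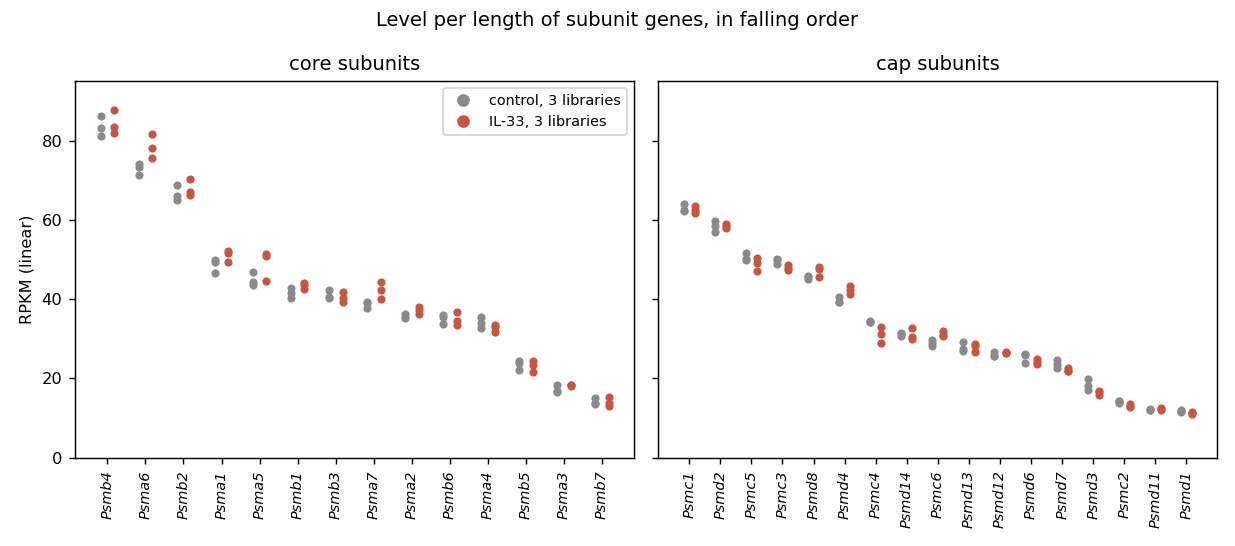
Level per length (RPKM, linear y axis) of each subunit gene (x axis) in every library, in falling order, core on the left and cap on the right; grey points are control and red points IL-33 libraries. Psmb4 stands at 83.9 and Psmb7 at 14.0 RPKM on average, and the spread between libraries is small beside the spread between genes.

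The immunoproteasome genes, outside the rule, encode the other set of catalytic subunits, and levels fell in 2 of 3 cases, beside 13.9% of all genes called lower. Psmb10, which replaces Psmb7, had 128, 131 and 124 CPM in control and 115, 102 and 107 CPM in IL-33 libraries. It fell by 0.24 on the log2 scale (SE 0.0407, adjusted p = 6.34e-07), with all IL-33 libraries below the controls. Psmb9, which replaces Psmb6, had 129, 129 and 135 CPM against 120, 119 and 114 CPM and fell by 0.15 (SE 0.0391, adjusted p = 0.00111), also without overlap. Psmb8, which replaces Psmb5, had 75.2, 81.2 and 82.2 CPM against 77.1, 75.2 and 69.4 CPM. Its groups overlapped, and at a log2 fold change of -0.11 (SE 0.0451) the adjusted p was 0.0667, or 0.0161 without control replicate 1. Psmb9 shares 212 exon bases (5.79%) with Tap1 on the opposite strand, whose log2 fold change was -0.04 (adjusted p = 0.276). Psmb8 shares 498 (14.7%) with the antisense gene Gm20496, so the values of both are uncertain to that extent.

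Dendritic cells were in the conversion culture, and the cells were then sorted as CD3+NK1.1-CD4-CD8-. How far the sort removed dendritic, NK and mast cells was not tested. The 11 dendritic and myeloid markers listed in the table summed to 98.6 to 103 CPM in control and 74.0 to 80.1 CPM in IL-33 libraries, a difference carried by Itgax alone, since the other 10 summed to 42.7 to 48.5 CPM in control and 49.3 to 52.3 CPM in IL-33 libraries. Of the 6 tested, 2 fell (Itgax and Cd74) and 1 rose (H2-Ab1, 24.8 against 30.3 CPM on average). Xcr1 was detected in every library and did not pass the test, at 11.5 and 12.4 CPM on average in control and IL-33 libraries. Zbtb46 averaged 2.89 and 2.98 CPM and H2-Eb1 0.46 and 0.76 CPM, also without passing. Siglech, Flt3, Lyz2, Csf1r and H2-Aa were at or near 0. NK cell markers summed to 40.3 to 45.7 CPM against 33.2 to 37.4 CPM, mostly from Klrb1c, the gene of the sort marker NK1.1 (33.5 against 25.6 CPM on average). Klrb1c was called lower (log2 fold change -0.39, adjusted p = 7.14e-06 by edgeR's test). Klre1 averaged 9.66 and 9.33 CPM and Ncr1 was near 0. Mast cell and basophil markers summed to 14.9 to 19.7 CPM against 10.2 to 13.6 CPM. Of the 2 tested, Cpa3 fell by 0.62 on the log2 scale (adjusted p = 8.34e-05 by edgeR's test), and Mcpt8 did not pass. B cell markers summed to 4.79 to 5.70 CPM against 5.30 to 6.35 CPM. The part of these cells in the results for Psmb9 and Psmb10 was not tested.

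Per length, Psmb10 exceeded Psmb7 in every library. Psmb10 over Psmb7 was 5.36 ± 0.433 in control and 4.56 ± 0.679 in IL-33 libraries, with overlap between the groups. Psmb9 over Psmb6 was 0.976, 1.05 and 1.03 in control and 0.892, 0.971 and 0.902 in IL-33 libraries, without overlap, and Psmb8 over Psmb5 was 1.00 ± 0.0130 against 0.945 ± 0.0719, with overlap. The size of these ratios depended on the length used. With the longest transcript the means in control and IL-33 libraries were 5.80 and 4.94 for Psmb10 over Psmb7, 0.667 and 0.604 for Psmb9 over Psmb6, and 1.77 and 1.67 for Psmb8 over Psmb5.

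**Figure D4:**
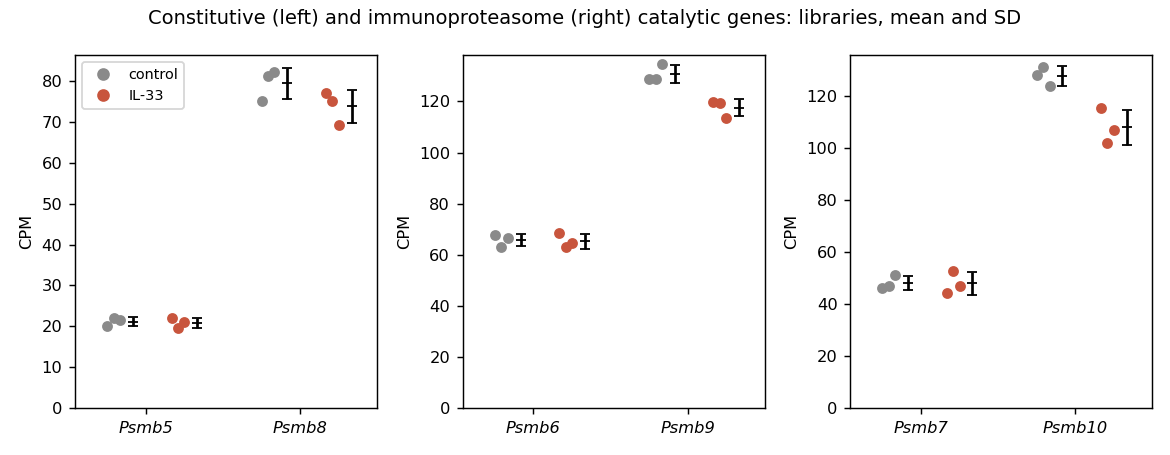
CPM (linear y axis, not divided by length) of each constitutive catalytic gene beside the immunoproteasome gene that replaces it (x axis); points are libraries, the bar is mean ± SD of 3. Psmb5, Psmb6 and Psmb7 overlap between control and IL-33 libraries, and Psmb9 and Psmb10 lie lower in all IL-33 libraries.

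In the lists around the particle, the share called was 20.0% of activators and inhibitors, 20.0% of assembly genes and 50.0% of regulators, beside 27.5% of all genes. Of the 5 activators and inhibitors, Psme3, a nuclear activator, fell from 144, 135 and 133 CPM to 124, 124 and 125 CPM, without overlap (log2 fold change -0.14, SE 0.0387, adjusted p = 0.00208). The other 4 did not pass, among them Psme2, part of the interferon-inducible activator (log2 fold change -0.08, adjusted p = 0.120), and Psme4, an activator of another family (0.05, adjusted p = 0.353). Psme2 passed without control replicate 1 (adjusted p = 0.0277), as did Ecpas, an adaptor of the cap (0.0151). Psme2 has a near-identical copy, Psme2b, so its counts are uncertain. Of 5 further cap genes tested none passed in edgeR, DESeq2 or limma-voom (1 at an unadjusted p under 0.05, Ecpas), with log2 fold changes of 0.08 for Ecpas, -0.06 for the ubiquitin receptor Adrm1 and -0.09 for the deubiquitinase Uchl5. Among 5 assembly genes, Psmg2, a chaperone of the alpha ring, fell from 21.8, 23.5 and 21.7 CPM to 17.8, 20.4 and 19.4 CPM. All IL-33 libraries lay below the controls (log2 fold change -0.22, SE 0.0857, adjusted p = 0.0455), but the call was lost in 7 of 12 other fits, DESeq2 included (0.113). Psmg3 and Psmg4, 2 further chaperones, did not pass (log2 fold changes -0.18 and 0.13).

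Of 7 regulators, Nfe2l3 had too few counts to be tested. Among the other 6, Nfe2l1, the factor that raises subunit genes together, did not pass the test. It had 178, 178 and 178 CPM in control and 181, 185 and 188 CPM in IL-33 libraries, which stood apart by little (log2 fold change 0.05, SE 0.0350, adjusted p = 0.267). Nfe2l2, the related factor of the oxidative stress response, had 31.8, 28.5 and 26.0 CPM in control and 18.1, 14.7 and 16.2 CPM in IL-33 libraries. It fell by 0.82 on the log2 scale (SE 0.0854, adjusted p = 6.33e-14), with the groups far apart, and alone among these regulators passed both thresholds. Ngly1, the glycanase that processes Nfe2l1, rose from 49.0, 52.8 and 47.5 CPM to 58.1, 60.7 and 55.9 CPM (log2 fold change 0.23, SE 0.0543, adjusted p = 0.000487). Zfand5, a proteasome activator of atrophying muscle, fell from 78.1, 82.5 and 82.3 CPM to 64.4, 70.9 and 70.1 CPM (log2 fold change -0.24, SE 0.0453, adjusted p = 7.09e-06). In both the groups did not overlap. Ddi2, the protease that cleaves Nfe2l1, and Akirin2, which carries proteasomes into the nucleus, did not pass (adjusted p = 0.0715 and 0.624).

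Of the 14 tested genes of ubiquitin, its activating enzymes and its shuttles, 1 rose (7.14%, beside 13.6% of all genes tested) and none fell. At an unadjusted p under 0.05, 3 were lower, and DESeq2 and limma-voom called 0 lower. Uba6, a ubiquitin-activating enzyme, had 43.6, 51.1 and 44.9 CPM in control and 50.2, 54.1 and 50.9 CPM in IL-33 libraries. The groups overlapped, and the log2 fold change was 0.15 (SE 0.0579, adjusted p = 0.0375), a call lost in 5 of 12 other fits. Rad23b, a shuttle that brings ubiquitinated proteins to the cap, had a log2 fold change of -0.10 (adjusted p = 0.0631) and did not pass. Without IL-33 replicate 3 it passed (-0.16, adjusted p = 0.000978), and without IL-33 replicate 2 the value was -0.05.

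**Figure D5:**
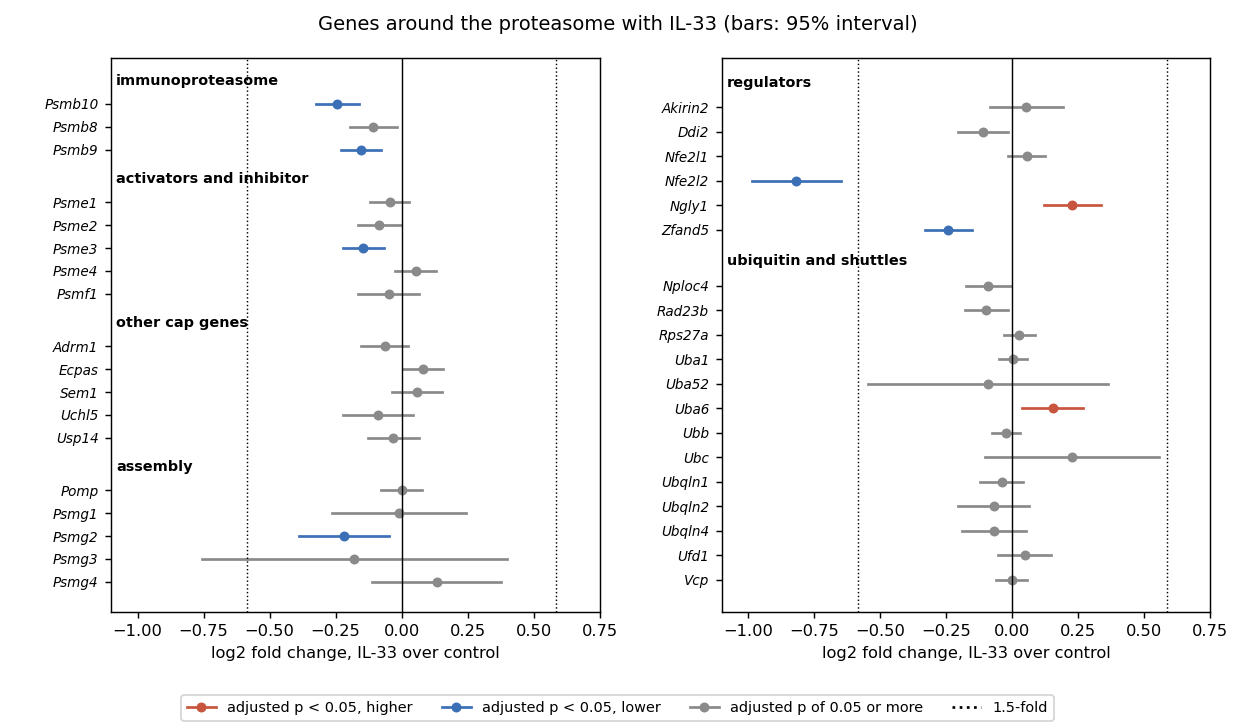
Log2 fold change with IL-33 (x axis, point) and 95% interval (bar) of genes around the proteasome, by list (y axis, 1 gene not shown); dotted lines mark 1.5-fold. Nfe2l2 is the one gene past 1.5-fold by its estimate, Psmb9, Psmb10, Psme3, Psmg2 and Zfand5 fell by less, and Ngly1 and Uba6 rose.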

How the data were processed

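RNA-seq libraries of 6 samples were grouped by their labels into 3 control and 3 IL-33 libraries. The authors deposited raw read counts per gene, without normalization, and 1 column of signal, which equals the average of size-factor-scaled counts and was not used. The submitters' processing notes name Bowtie 0.12.2 and mm8; the counter and the strand setting were not given in the sources used here. A TruSeq kit is named in the labels and a NEBNext kit in the methods of the study. Of the 26128 genes, 26086 matched GENCODE M21 (GRCm38) by identifier, the source of all positions and lengths.

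The filterByExpr function of edgeR (at least 10 counts, 15 in total) removed genes of low count, TMM set the library scale, and the quasi-likelihood test of edgeR (two-sided, robust, without covariates) compared the groups, with Benjamini-Hochberg adjustment over the 14671 genes tested (edgeR 4.0.16, DESeq2 1.42.0 and limma 3.58.1 under R 4.3.3). The fit was tested on simulated data. The thresholds, 0.05 on the adjusted p and 1.5 on the fold change, follow the study. Intervals of the log2 fold change are at 95%. They come from the fit to all 6 libraries, in which the spread of each gene is moderated by that of other genes. Members and lists were chosen with earlier results of these data known. Values in every library are given by rule for the 6 core and 6 cap members of smallest adjusted p, catalytic and immunoproteasome genes, chaperones, Psma8, Psmb11 and Psmc3ip. From each other list, the 3 genes of smallest adjusted p and any past both thresholds were named, except 1 gene that is not reported here. Psmd2, Psmd14, Nfe2l1, Ddi2 and Akirin2 were added after their values were seen. Alternatives were DESeq2, limma-voom, DESeq2 size factors, no filter, a stricter filter (1 CPM), a replicate block and leaving out each library.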

Additional observations from a re-analysis of the deposited data

How the results depend on the processing

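Each fit was repeated in 12 other ways. Of 420 refits of the 35 members, 381 kept direction and side of the threshold, 11 (4 genes) lost a call, 5 (3 genes) gained one and 23 (8 genes, none called) changed sign. Psmc3ip, Psmb9, Psmb10, Psme3, Nfe2l2, Ngly1 and Zfand5 kept their calls in all 12. Members called higher numbered 2, against 1 in DESeq2, 1 without a filter on low counts, 3 under the stricter filter and 0 to 3 on leaving out 1 library. Members called lower, all in the cap, numbered 3. They numbered 2 in DESeq2, without IL-33 replicate 3 and without control replicate 1. Core members called higher numbered 1, against 2 under the stricter filter and 0 to 2 on leaving out 1 library. Cap members called higher numbered 1, against 0 in DESeq2, 0 without a filter and 0 to 1 on leaving out 1 library. The median log2 fold change of the cap members, -0.0085, ran from -0.0398 to -0.0049 on leaving out 1 library. On leaving out 1 library, the signs changed in Psmb4 (-0.0098 to 0.0392), Psmb5 (-0.0607 to 0.0241), Psmb6 (-0.0431 to 0.0188), Psmb7 (-0.0748 to 0.0542), Psmc1 (-0.0172 to 0.0035), Psmd2 (-0.0148 to 0.0180), Psmd13 (-0.0237 to 0.0364) and Psmd14 (-0.0398 to 0.0252), and in Psmd13 also with DESeq2 (-0.000696) and DESeq2 size factors (-0.000654). The causes were not tested.

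Whether replicate numbers pair the libraries was not stated. Same-numbered deviations correlated at r = 0.0116, 0.0032 and 0.0108, and each correlated best with its own number. Values this small cannot decide whether the libraries were paired. With the replicate block, 2 members were called higher and 3 lower, and 1884 and 1914 of all genes, against 1999 and 2037 without it. Scaling moved the median of all genes to -0.0014 with DESeq2 size factors. Psma8 and Psmb11 could not be tested at this depth.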
